A study of Mus musculus with 15 samples.

Results

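The 10 genes described here are the mouse MHC class I presentation genes H2-K1, H2-D1, B2m, Tap1, Tap2, Tapbp, Nlrc5, Psmb8, Psmb9 and Erap1. They were chosen by function, as class I heavy chains and the genes for their light chain, peptide supply and transcription, because class I expression is known to be low in neuroblastoma driven by MYCN. All 10 were among the 23329 genes in the count tables and all 10 were among the 14880 genes that passed the filter of over 1 CPM (reads scaled to library size, which for all levels below was adjusted by edgeR's TMM method) in at least 3 tumors. The lowest count of any of them in any tumor was 9 reads, so none was at 0.

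RNA sequencing was carried out on 15 tumors, each from a different mouse. The lymphomas came from cervical lymph nodes of C57BL/6 mice that carry EμMyc, in which an immunoglobulin heavy chain enhancer drives Myc in B lineage cells, and 4 were EμMyc with Casp2 intact and 3 EμMyc/Casp2-/-. The neuroblastomas were paraspinal thoracic tumors of Sv129/C57BL6 mice that carry Th-MYCN, where MYCN is under the promoter of tyrosine hydroxylase and so active in neuroblasts of the sympathetic lineage, and 4 were Th-MYCN with Casp2 intact and 4 Th-MYCN/Casp2-/-. Casp2 encodes caspase-2, a protease of the cell death machinery. Lymphomas arose at 13 to 19 weeks with Casp2 intact and at 8 to 12 weeks without it, so effects of onset and of Casp2 loss cannot be told apart there. Neuroblastomas arose at 10 to 21 weeks with Casp2 intact and at 15 to 24 weeks without it. The study chose neuroblastomas with few or no visible blood vessels, so the neuroblastoma groups stand for such tumors. Tumors are named below by their label, which ends in the mouse number.

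Each tumor had 4940464 to 17638029 reads in genes. Casp2 reads remained in all Casp2-/- tumors, at 51.9 to 76.1 CPM in EμMyc/Casp2-/- against 125 to 203 CPM in EμMyc tumors, and at 39.6 to 80.2 CPM in Th-MYCN/Casp2-/- against 76.0 to 126 CPM in Th-MYCN tumors, where the ranges overlap. Counts over the whole gene do not show which part of it was deleted, and the genotypes are those of the labels. The study reports that genotyping and immunoblotting showed the Casp2 deletion in its tumor samples. It also reports significantly lower Casp2 RNA in EμMyc/Casp2-/- than in EμMyc tumors.

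MHC class I molecules display peptides from inside a cell to CD8 T cells, and a cell with few of them is hard for those T cells to see. Proteins are cut by the proteasome, the peptides are pumped into the endoplasmic reticulum by the TAP transporter, trimmed there, and loaded with the help of tapasin onto a heavy chain paired with beta-2-microglobulin. Interferon-gamma and the transactivator NLRC5 raise most of these genes together, and sympathetic neuroblasts normally carry little class I.

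Of the 10 genes, 7 lie on chromosome 17 in the MHC region, between 33915899 and 35267499 of GRCm38, and B2m lies on chromosome 2, Nlrc5 on chromosome 8 and Erap1 on chromosome 13. Tap1 (34187553-34197225, plus strand) and Psmb9 (34181987-34187764, minus strand) start against each other, and Psmb8 (34197721-34201454) and Tap2 (34203527-34216321) follow on the plus strand. RefSeq promoters of GRCm38.p6, around the start of transcription, were matched for 8 of the 10 genes. They were searched on both strands for the letters TGACG, the core of a cAMP response element, and CCAAT, the box bound by NF-Y. The first was in 5 of the 8 genes, against 23% of all 27025 genes, and the second in 6 of 8, against 41.1%. The promoters of Tap1 and Psmb9 are nearly the same stretch on opposite strands, so each count holds their shared site under both genes. After the sequences were seen, it was also counted how often the starts of both motifs lay 25 bases apart. This was so in 3 of the 8, H2-K1, H2-D1 and B2m, and in 58 of all 27025 genes (0.215%). Among the H2 genes outside the 10 it was in H2-M3, a non-classical class I heavy chain. The spacing was read from these sequences, so its count among them is a description only. Their 150 bases before the start are shown because they hold the pair in the same orientation. Only the letters of the pair are in capitals, and its CCAAT is read as ATTGG on this strand. A further CCAAT of H2-D1, 53 bases before its start, is left in lower case. The stretches are chr17:34000348-34000497 on the minus strand for H2-K1, chr17:35262944-35263093 on the plus strand for H2-D1 and chr2:122147537-122147686 on the plus strand for B2m.
H2-K1: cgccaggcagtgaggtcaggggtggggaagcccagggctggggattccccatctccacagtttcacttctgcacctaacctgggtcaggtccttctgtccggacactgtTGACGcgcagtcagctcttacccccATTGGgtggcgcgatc
H2-D1: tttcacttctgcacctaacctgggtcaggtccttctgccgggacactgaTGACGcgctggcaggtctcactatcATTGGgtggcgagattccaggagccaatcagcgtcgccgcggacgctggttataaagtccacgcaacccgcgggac
B2m: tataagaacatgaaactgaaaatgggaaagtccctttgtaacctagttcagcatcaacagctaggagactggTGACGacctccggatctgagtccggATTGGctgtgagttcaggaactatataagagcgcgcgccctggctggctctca

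The pair starts 41 and 16 bases before the start of H2-K1, 101 and 76 bases before that of H2-D1 and 78 and 53 bases before that of B2m. From a further RefSeq start of H2-K1 it lies 55 and 30 bases upstream, so these distances depend on the start used. A letter match is a description and not a binding site. The interferon-stimulated response element, searched as GAAANNGAAA, was in 2 of the 8 promoters, those of B2m and Erap1, against 3.99% of all genes. The gamma-activated site, searched as TTCNNNGAA, was in 1, that of Psmb8, against 9.55%. Only these exact letters were counted, so a promoter without a match may still hold a variant of either element.

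All 10 genes were higher in lymphomas than in neuroblastomas, in Casp2 intact tumors and in Casp2-/- tumors, and in neither comparison did any of the 10 overlap between the groups. Over all genes tested, 26.4% lay higher in lymphoma and 32.9% lower without overlap with Casp2 intact, and 23.6% and 31.2% without it. In EμMyc against Th-MYCN tumors 10 of 10 were called higher in lymphoma by edgeR's quasi-likelihood test (QLF), at a Benjamini-Hochberg FDR under 0.05 and a difference of over 2-fold. Over all 14880 genes the same rule called 46.1% in either direction and 18.3% higher in lymphoma. In EμMyc/Casp2-/- against Th-MYCN/Casp2-/- tumors 10 of 10 were again called, where over all genes 46.4% were called in either direction and 19.7% higher in lymphoma. The median log2 fold change of the 10 was 3.86 in the first comparison and 4.83 in the second, beside -0.04 and -0.05 over all genes tested. The tumors differ in tissue, strain background and driving transgene as well as in cell type, which cannot be told apart in this comparison, and in bulk tumors fewer cells of a type cannot be told apart from less RNA per cell. Together the 10 genes summed to 1922 to 3393 CPM in the lymphomas and to 257 to 475 CPM in the neuroblastomas.

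**Figure D1:**
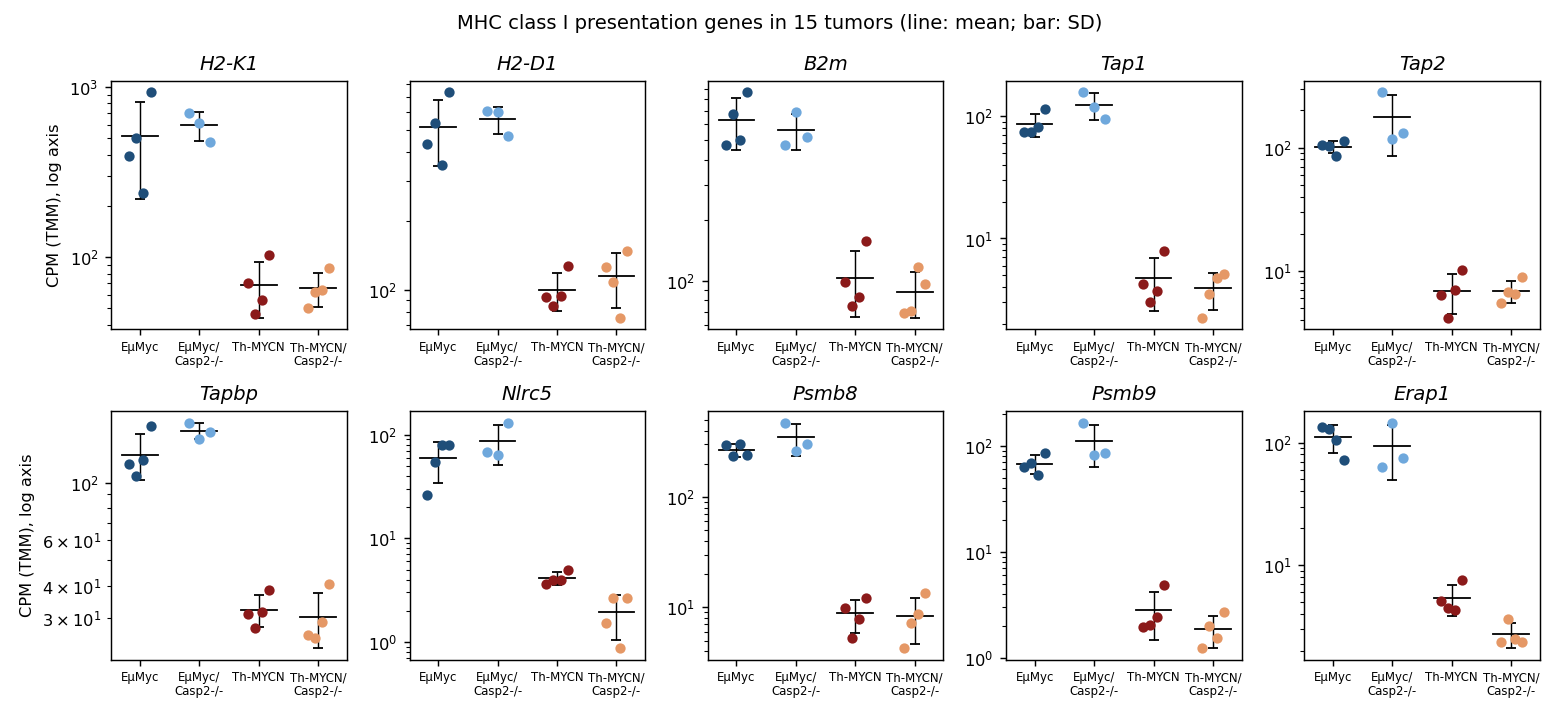
CPM, scaled by edgeR's TMM method and on a log axis, of the 10 genes in the 15 tumors, with 1 point per tumor, the group mean as a line and the SD as a bar. In each panel the 7 lymphomas lie above the 8 neuroblastomas, and the genotypes of a tumor type overlap except for Nlrc5 and Erap1 in the neuroblastomas and Tap2 in the lymphomas.

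Markers of blood cells moved with the tumor type. The 4 leukocyte markers Ptprc, Cd53, Coro1a and Laptm5 summed to 1480 to 3352 CPM in lymphomas and to 95.9 to 269 CPM in neuroblastomas, with none at 0 in any tumor. The 6 B cell markers summed to 1804 to 4308 CPM in lymphomas and to 5.60 to 21.3 CPM in neuroblastomas, with up to 2 of the 6 at 0 in a neuroblastoma, and the 9 neuroblast markers to 2.68 to 23.6 and to 3376 to 5864 CPM. The 9 macrophage markers in the files did not part the tumor types, with 343 to 1703 CPM in lymphomas and 380 to 948 CPM in neuroblastomas. The part of these cells in the class I values was not tested. Tumor EuMycC2ko215, an EμMyc/Casp2-/- lymphoma with the smallest library, held 2530 CPM of B cell markers and also 993 CPM of 6 T cell markers, where the other lymphomas held 5.69 to 111 CPM. Called values of named genes that moved by over 1.5 times on leaving out a single tumor are given both ways, apart from those of H2-M5, which are given as reads.

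The heavy chains present the peptide. H2-K1 was at 390.2, 504, 237 and 929 CPM in EμMyc tumors EuMyc614, EuMyc743b, EuMyc829 and EuMyc835, and at 698, 617 and 473 CPM in EμMyc/Casp2-/- tumors EuMycC2ko215, EuMycC2ko239 and EuMycC2ko245. In Th-MYCN tumors MYCN175, MYCN235, MYCN332 and MYCN391 it was at 70.2, 46.0, 55.8 and 103 CPM, and in Th-MYCN/Casp2-/- tumors MYCNC2ko118, MYCNC2ko144, MYCNC2ko176 and MYCNC2ko180 at 50.1, 62.1, 64.0 and 85.8 CPM. The lowest lymphoma thus lay above the highest neuroblastoma, although the EμMyc tumors themselves spread widely, with tumor EuMyc835 high and tumor EuMyc829 low. The difference was 7.48-fold between the Casp2 intact groups (log2 fold change 2.90, SE 0.34, QLF FDR 6.8e-06) and 9.10-fold between the Casp2-/- groups (3.19, SE 0.37, QLF FDR 5.0e-06). H2-D1 had 353 to 733 CPM in EμMyc and 470.1 to 604 CPM in EμMyc/Casp2-/- tumors, against 84.9 to 127 CPM in Th-MYCN and 75.2 to 149 CPM in Th-MYCN/Casp2-/- tumors. Its log2 fold changes were 2.37 (SE 0.24, QLF FDR 9.3e-07) and 2.28 (SE 0.26, QLF FDR 2.6e-06), among the smaller differences of the 10.

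Class I heavy chain genes resemble each other, and reads of 50 bases that fit several genes are not counted. Of the windows of 50 bases in its transcripts, H2-K1 shared 9.63% and H2-D1 12.8% with another gene, while B2m shared none. Tapbp shared 23.2%, Psmb8 11.9%, Tap2 11.6% and Erap1 10.7%, mostly with overlapping genes, Cast in the case of Erap1, and Tap1 and Psmb9 overlap at their starts. The counts do not tell strands apart, so these values may hold reads of such neighbours. With reads of all 30 H2 class I heavy chains in the files added up, the log2 difference between EμMyc and Th-MYCN tumors was 2.59. This alternative was chosen after the shared windows were counted. It does not recover reads that fit several genes, which were counted for none of them. Over whole libraries, reads that map to several places were 19.44 to 24.17% in lymphomas and 15.05 to 17.72% in neuroblastomas. Their part in the heavy chain values was not tested.

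B2m encodes beta-2-microglobulin, the light chain that every class I heavy chain needs to reach the surface. It was at 471, 674, 503 and 864 CPM in EμMyc tumors EuMyc614, EuMyc743b, EuMyc829 and EuMyc835 and at 475, 689 and 516 CPM in EμMyc/Casp2-/- tumors EuMycC2ko215, EuMycC2ko239 and EuMycC2ko245. In Th-MYCN tumors MYCN175, MYCN235, MYCN332 and MYCN391 it was at 98.5, 75.2, 82.8 and 158 CPM, and in Th-MYCN/Casp2-/- tumors MYCNC2ko118, MYCNC2ko144, MYCNC2ko176 and MYCNC2ko180 at 68.9, 70.6, 117 and 95.9 CPM. Lymphomas were higher without overlap, by 6.06-fold (log2 fold change 2.60, SE 0.26, QLF FDR 1.1e-06) and 6.36-fold (2.67, SE 0.28, QLF FDR 1.6e-06). Per kilobase of exon it was the most abundant of the 10 in every group, at 730.3 ± 211 CPM per kilobase in EμMyc (SD, n = 4), 651 ± 132 in EμMyc/Casp2-/- (SD, n = 3), 121 ± 43.6 in Th-MYCN (SD, n = 4) and 102 ± 26.4 in Th-MYCN/Casp2-/- tumors (SD, n = 4).

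Tap1 and Tap2 encode the subunits of the peptide transporter, and Tapbp encodes tapasin, which holds the empty class I molecule beside it. Tap1 was at 74.9, 74.8, 81.2 and 114 CPM in EμMyc tumors EuMyc614, EuMyc743b, EuMyc829 and EuMyc835 and at 157, 119 and 94.6 CPM in EμMyc/Casp2-/- tumors EuMycC2ko215, EuMycC2ko239 and EuMycC2ko245. It was at 4.28, 3.05, 3.69 and 7.91 CPM in Th-MYCN tumors MYCN175, MYCN235, MYCN332 and MYCN391, and at 2.23, 3.53, 4.73 and 5.12 CPM in Th-MYCN/Casp2-/- tumors MYCNC2ko118, MYCNC2ko144, MYCNC2ko176 and MYCNC2ko180. The gap was wider than that of the heavy chains, 18.1-fold (log2 fold change 4.18, SE 0.30, QLF FDR 5.5e-08) and 31.7-fold (4.99, SE 0.33, QLF FDR 2.2e-08). Tap2 had 85.4 to 112 CPM in EμMyc and 117 to 280.1 CPM in EμMyc/Casp2-/- tumors, against 4.14 to 10.13 CPM in Th-MYCN and 5.47 to 8.86 CPM in Th-MYCN/Casp2-/- tumors, a difference of 3.87 (SE 0.29, QLF FDR 6.6e-08) and 4.68 (SE 0.31, QLF FDR 2.3e-08) on the log2 scale. Tapbp had the smallest difference of the 10 between the Casp2 intact groups, 3.97-fold (1.99, SE 0.19, QLF FDR 3.6e-07), with 106 to 165 CPM in EμMyc and 27.5 to 38.4 CPM in Th-MYCN tumors. Between the Casp2-/- groups it was 5.26-fold (2.40, SE 0.20, QLF FDR 1.2e-07).

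Psmb8 and Psmb9 encode the immunoproteasome subunits LMP7 and LMP2, which replace the constitutive catalytic subunits in cells exposed to interferon and in many blood cells. Psmb8 was at 296, 237, 303 and 238 CPM in EμMyc tumors EuMyc614, EuMyc743b, EuMyc829 and EuMyc835 and at 473, 262 and 304 CPM in EμMyc/Casp2-/- tumors EuMycC2ko215, EuMycC2ko239 and EuMycC2ko245. It was at 9.83, 5.30, 7.79 and 12.2 CPM in Th-MYCN tumors MYCN175, MYCN235, MYCN332 and MYCN391, and at 4.25, 7.26, 8.78 and 13.4 CPM in Th-MYCN/Casp2-/- tumors MYCNC2ko118, MYCNC2ko144, MYCNC2ko176 and MYCNC2ko180. No neuroblastoma came near the lowest lymphoma, and the difference between the Casp2 intact groups was the largest of the 10 genes, 30.5-fold (log2 fold change 4.93, SE 0.31, QLF FDR 1.5e-08). Between the Casp2-/- groups it was 41.2-fold (5.36, SE 0.33, QLF FDR 1.3e-08). Psmb9 had 53.5 to 86.0 CPM in EμMyc and 81.1 to 166 CPM in EμMyc/Casp2-/- tumors, against 1.96 to 4.82 CPM in Th-MYCN and 1.22 to 2.68 CPM in Th-MYCN/Casp2-/- tumors. It had the largest difference of the 10 between the Casp2-/- groups, 59.1-fold (5.89, SE 0.36, QLF FDR 1.2e-08), beside 24.1-fold between the Casp2 intact groups (4.59, SE 0.33, QLF FDR 4.9e-08).

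Erap1 encodes the aminopeptidase that trims peptides in the endoplasmic reticulum to the length class I holds. It was at 133, 130.2, 105 and 72.5 CPM in EμMyc tumors EuMyc614, EuMyc743b, EuMyc829 and EuMyc835 and at 62.7, 146 and 75.01 CPM in EμMyc/Casp2-/- tumors EuMycC2ko215, EuMycC2ko239 and EuMycC2ko245. It was at 5.13, 4.50, 4.33 and 7.60 CPM in Th-MYCN tumors MYCN175, MYCN235, MYCN332 and MYCN391, and at 2.38, 3.66, 2.51 and 2.36 CPM in Th-MYCN/Casp2-/- tumors MYCNC2ko118, MYCNC2ko144, MYCNC2ko176 and MYCNC2ko180. Lymphomas were 20.4-fold higher with Casp2 intact (log2 fold change 4.35, SE 0.29, QLF FDR 2.2e-08) and 34.4-fold higher without it (5.11, SE 0.32, QLF FDR 1.2e-08).

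Nlrc5 encodes the transactivator of class I genes. It was at 26.1, 54.2, 78.8 and 79.3 CPM in EμMyc tumors EuMyc614, EuMyc743b, EuMyc829 and EuMyc835 and at 68.4, 64.4 and 131 CPM in EμMyc/Casp2-/- tumors EuMycC2ko215, EuMycC2ko239 and EuMycC2ko245. It was at 3.60, 3.92, 3.98 and 4.94 CPM in Th-MYCN tumors MYCN175, MYCN235, MYCN332 and MYCN391, and at 1.51, 2.63, 0.868 and 2.68 CPM in Th-MYCN/Casp2-/- tumors MYCNC2ko118, MYCNC2ko144, MYCNC2ko176 and MYCNC2ko180. The lowest value, in tumor MYCNC2ko176, was 9 reads. Lymphomas were higher by 14.5-fold with Casp2 intact (log2 fold change 3.85, SE 0.37, QLF FDR 9.8e-07) and by 45.1-fold without it (5.49, SE 0.42, QLF FDR 9.1e-08).

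Per kilobase of exon the order of the 10 began alike in all 4 groups, with B2m first, then H2-D1, then H2-K1, the heavy chains overlapping each other in every group. Below them, Psmb8 came next in the lymphomas, ahead of Tapbp and Tap2, while in the neuroblastomas Tapbp came next and Psmb8 after it. This step did not overlap in any group, with 79.5 ± 10.6 CPM per kilobase for Psmb8 against 35.2 ± 7.11 for Tapbp in EμMyc tumors (SD, n = 4), and 8.85 ± 1.25 for Tapbp against 2.60 ± 0.872 for Psmb8 in Th-MYCN tumors (SD, n = 4). Nlrc5 was last in every group, at 7.02 ± 2.97 CPM per kilobase in EμMyc (SD, n = 4) and 0.484 ± 0.0679 in Th-MYCN tumors (SD, n = 4).

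**Figure D2:**
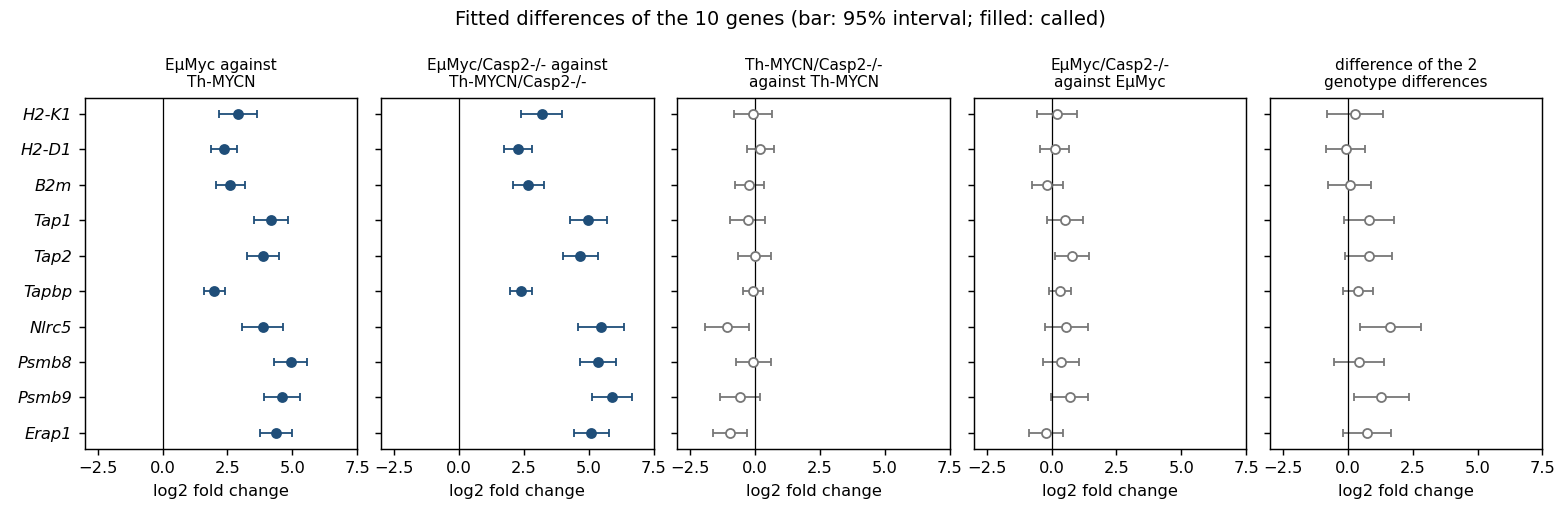
Fitted log2 fold changes of the 10 genes in 4 comparisons and in the difference of the 2 genotype differences, with 95% intervals from the QLF fit and filled points for called genes. All points of the comparisons between tumor types lie between 1.99 and 5.89 and are called, and none of the points between genotypes is.

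The question of the study was what Casp2 loss changes in each tumor type. Between the neuroblastoma genotypes, Th-MYCN/Casp2-/- over Th-MYCN, 0 of the 10 genes were called by QLF, by edgeR's likelihood ratio test (LRT) or by DESeq2, where over all genes QLF called 5 genes, 0.0336%. The median log2 fold change of the 10 was -0.17, and 2 of the 10 had an unadjusted p under 0.05. They were the 2 whose groups did not overlap, Erap1 and Nlrc5, and over all genes tested the Casp2-/- tumors lay below without overlap in 3.68%. Erap1 was lower in all 4 Th-MYCN/Casp2-/- tumors than in any Th-MYCN tumor, by 1.97-fold (log2 fold change -0.98, SE 0.31, 95% interval -1.63 to -0.32, QLF FDR 0.40). Nlrc5 was lower likewise, by 2.11-fold (-1.08, SE 0.40, 95% interval -1.93 to -0.23, QLF FDR 0.55). With reads of either strand counted, the log2 fold change of Erap1 was -0.66 and that of Nlrc5 -1.03. The 5 endothelial markers summed to 46.4 to 72.3 CPM in Th-MYCN and 18.8 to 30.9 CPM in Th-MYCN/Casp2-/- tumors, which did not overlap either. The 9 neuroblast markers also parted the genotypes, summing to 4692 to 5864 CPM in Th-MYCN and 3376 to 4633 CPM in Th-MYCN/Casp2-/- tumors. Among them Th, the tyrosine hydroxylase gene, was at 314 to 1447 CPM in Th-MYCN and 75.9 to 246 CPM in Th-MYCN/Casp2-/- tumors, a gene given after its values were seen. None of these markers was at 0 in any neuroblastoma, and the part of the cells they mark in the Erap1 and Nlrc5 values was not tested. Without tumor MYCN391 the log2 fold change of Erap1 was -0.76 and that of Nlrc5 -0.98.

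The other 8 genes overlapped between the neuroblastoma genotypes. Their log2 fold changes ran from -0.59 for Psmb9 (95% interval -1.35 to 0.17) to 0.20 for H2-D1 (95% interval -0.31 to 0.71), with QLF FDR from 0.87 to 1. For H2-K1 the interval was -0.81 to 0.66, for B2m -0.80 to 0.32, for Tap1 -0.97 to 0.39, for Tap2 -0.65 to 0.62, for Tapbp -0.49 to 0.31 and for Psmb8 -0.74 to 0.60, so these tumors leave room for a difference of up to about that size either way.

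In EμMyc/Casp2-/- against EμMyc tumors 0 of the 10 were called by QLF, LRT or DESeq2, where over all genes QLF called 21 genes, 0.141%. The median log2 fold change was 0.34, and 1 of the 10, Tap2, had an unadjusted p under 0.05. Tap2 was at 106, 103, 85.4 and 112 CPM in EμMyc tumors EuMyc614, EuMyc743b, EuMyc829 and EuMyc835 and at 280.1, 117 and 130.1 CPM in EμMyc/Casp2-/- tumors EuMycC2ko215, EuMycC2ko239 and EuMycC2ko245. It did not overlap, as in 1.75% of all genes tested, but its log2 fold change of 0.79 (SE 0.31, QLF FDR 0.44) was 0.30 without tumor EuMycC2ko215, the tumor with T cell markers. Psmb9 had 0.70 (95% interval -0.02 to 1.42, QLF FDR 0.59) and 0.31 without tumor EuMycC2ko215. The other 8 had log2 fold changes from -0.22 for Erap1 (95% interval -0.87 to 0.42) to 0.56 for Nlrc5 (95% interval -0.26 to 1.39). Of them, H2-K1 had an interval of -0.58 to 1.00, H2-D1 of -0.43 to 0.66 and B2m of -0.77 to 0.44.

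Whether Casp2 loss differed between the tumor types was tested as the difference of the 2 genotype differences, lymphoma minus neuroblastoma. None of the 10 was called by QLF, LRT or DESeq2, where over all genes QLF called 8 genes, 0.0538%, and 2 of the 10 had an unadjusted p under 0.05. They were Nlrc5, with 1.64 on the log2 scale (SE 0.56, 95% interval 0.45 to 2.83, QLF FDR 0.48), and Psmb9, with 1.30 (SE 0.49, 95% interval 0.25 to 2.34, QLF FDR 0.55). Without tumor EuMycC2ko215 the value of Psmb9 was 0.90, and without tumor MYCN391 it was 0.91. These comparisons share their tumors with those between genotypes and tumor types above.

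The immunoproteasome can also be set against the constitutive subunits it replaces within each tumor, which does not depend on the scaling of libraries. For each 100 reads of Psmb5, the constitutive partner of Psmb8, EμMyc tumors had 534 to 777 reads of Psmb8 and EμMyc/Casp2-/- tumors 447 to 643, against 23.8 to 55.2 in Th-MYCN and 10.5 to 25.7 in Th-MYCN/Casp2-/- tumors. For each 100 reads of Psmb6, the partner of Psmb9, there were 29.5 to 45.6 and 39.3 to 55.7 reads of Psmb9 in the lymphoma groups and 0.625 to 2.03 and 0.349 to 0.899 in the neuroblastoma groups. For each 100 reads of Psmb7, the partner of Psmb10, there were 55.6 to 78.7 and 59.9 to 136 reads of Psmb10 in the lymphomas and 7.71 to 11 and 8.72 to 13.4 in the neuroblastomas. The balance thus lay toward the interferon-inducible subunit in every lymphoma relative to every neuroblastoma, and the differences were larger for Psmb8 and Psmb9 than for Psmb10.

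Between EμMyc and Th-MYCN tumors the log2 ratios differed by 4.34 for Psmb8/Psmb5, 5.10 for Psmb9/Psmb6 and 2.90 for Psmb10/Psmb7. Each had p = 0.0286 in a 2-sided exact permutation test, the smallest that 4 against 4 tumors allow, and 0.098 after adjustment over 12 tests. Between the Casp2-/- groups they differed by 5.10, 6.32 and 3.11, each with an exact permutation p = 0.0571, the smallest that 3 against 4 tumors allow, and 0.098 adjusted. All 7 lymphomas against all 8 neuroblastomas, a pooling chosen after seeing these limits, gave 4.73, 5.67 and 2.97, each with an exact permutation p = 0.000311, the smallest that design allows. Between genotypes the ratio groups overlapped in every case. The widest difference was that of Psmb8/Psmb5 in the neuroblastomas, -0.96 on the log2 scale (2-sided exact permutation p = 0.0571, 0.098 adjusted), where Psmb5 had 20.4 to 32.7 CPM in Th-MYCN and 35.2 to 67.3 CPM in Th-MYCN/Casp2-/- tumors.

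**Figure D3:**
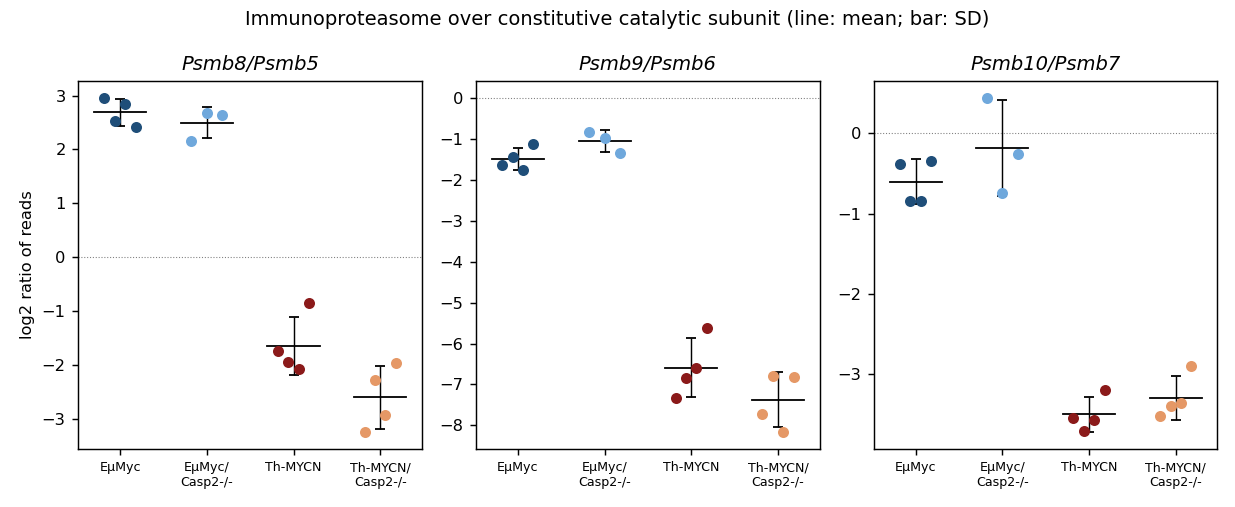
Log2 of the reads of each interferon-inducible proteasome subunit over the constitutive subunit it replaces, 1 point per tumor, with the group mean as a line and the SD as a bar. The 3 ratios separate all lymphomas from all neuroblastomas, and the genotypes overlap within each tumor type.

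The other genes of the pathway were followed in 9 lists. Of 75 genes tested outside the 10, 29 were called higher and 2 lower in EμMyc than in Th-MYCN tumors, and 32 higher and 2 lower between the Casp2-/- groups. In either direction this was 41.3% and 45.3% of the 75, near the shares over all genes of 46.1% and 46.4%. Called higher in lymphoma were 38.7% and 42.7% of the 75, above the 18.3% and 19.7% over all genes. None of the 75 was called between genotypes in either tumor type or in the difference of differences by QLF, LRT or DESeq2, and 2 between neuroblastoma genotypes, 8 between lymphoma genotypes and 4 in the difference of differences had an unadjusted QLF p under 0.05. These are 2.67%, 10.7% and 5.33%, beside 6.77%, 8.53% and 7.57% of all genes tested. The calls were unevenly spread over the lists. All 3 other interferon-inducible proteasome genes were higher in lymphoma, Psmb10 by 2.63 (SE 0.24, QLF FDR 4.3e-07), Psme2 by 1.89 and Psme1 by 1.68 on the log2 scale with Casp2 intact. Psme1 and Psme2 encode the PA28 cap of the proteasome. None of the 3 constitutive catalytic genes was called, with values from -0.43 for Psmb6 to 0.62 for Psmb5. Of 14 core proteasome genes 0 were called with Casp2 intact and 1 without it, Pomp, a chaperone of proteasome assembly, at 1.35.

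Of 6 peptide loading chaperones only Tapbpl, a tapasin relative that edits the peptide, was called, at 1.91 (SE 0.34, QLF FDR 0.00024) and 1.98. Calreticulin (Calr), a general chaperone of the endoplasmic reticulum, was not, at 607 ± 147 CPM in EμMyc and 559 ± 101 CPM in Th-MYCN tumors (SD, n = 4 each). Its log2 difference was 0.12 (95% interval -0.32 to 0.56). Of 7 other peptidases, Lnpep, which trims peptides in endosomes, was higher at 2.38 and 2.66, and Npepps, a cytosolic aminopeptidase, was lower in lymphoma at -1.20 and -1.16. Their list medians were 0.34 and 0.46.

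Of 14 other class I heavy chains and related genes tested, 8 were called higher and 1 lower in EμMyc tumors, and 9 and 1 between the Casp2-/- groups. H2-K2 was higher by 3.62, H2-T10 by 3.10 and H2-Q4 by 2.98 with Casp2 intact, and H2-M2 by 4.99, H2-T10 by 4.20 and H2-Q4 by 3.64 without it. Without tumor EuMyc835 the value of H2-K2 was 2.74, and without tumor EuMycC2ko215 that of H2-T10 between the Casp2-/- groups was 3.36. H2-M2 rests on 3 to 111 reads in EμMyc/Casp2-/- and 0 to 5 reads in Th-MYCN/Casp2-/- tumors. These genes share reads with their relatives and their own values are uncertain, and 6 of the 30 H2 class I genes in the files had no reads at all. H2-M5 went the other way, with 33 to 84 reads in Th-MYCN and 41 to 76 in Th-MYCN/Casp2-/- tumors, 0 to 4 reads in EμMyc tumors and 0 in all 3 EμMyc/Casp2-/- tumors. Against a floor of 3 reads per tumor it was at least 11.2-fold lower in the EμMyc/Casp2-/- than in the Th-MYCN/Casp2-/- tumors.

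The regulators of class I differed by list as well. Of 9 genes of class I transactivation, 4 were higher in each comparison, Ciita by 5.56 and 6.33, Atf1 by 1.91 and 1.89 and Rfx5 by 1.43 and 1.75 among them, and 5 were not called. Ciita is the class II relative of Nlrc5 and is expressed in B cells, and it ran from 6.84 to 73.7 CPM in EμMyc and from 0.611 to 1.36 CPM in Th-MYCN tumors. Its value between the Casp2-/- groups was 5.33 without tumor EuMycC2ko239. Of 13 interferon signalling genes 7 and 8 were higher and none lower. Irf8, a factor of B cells and myeloid cells, was higher by 4.28 and 5.01, Irf2 by 2.23 with Casp2 intact, and Socs1 by 2.04 and 2.98, the latter 2.33 without tumor EuMycC2ko215. Ifng itself, outside the rule for genes named here, had at most 1 read in any tumor and none in 11 of the 15. Of 6 NF-kB genes 5 were higher in each comparison, Rel by 3.91 and 3.75, Nfkb2 by 2.44 and 3.27, Relb by 1.64 with Casp2 intact and Nfkb1 by 1.89 without it. The value of Relb was 1.05 without tumor EuMyc835, and that of Rel between the Casp2-/- groups was 4.38 without tumor EuMycC2ko215 and 3.12 without tumor EuMycC2ko239.

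**Figure D4:**
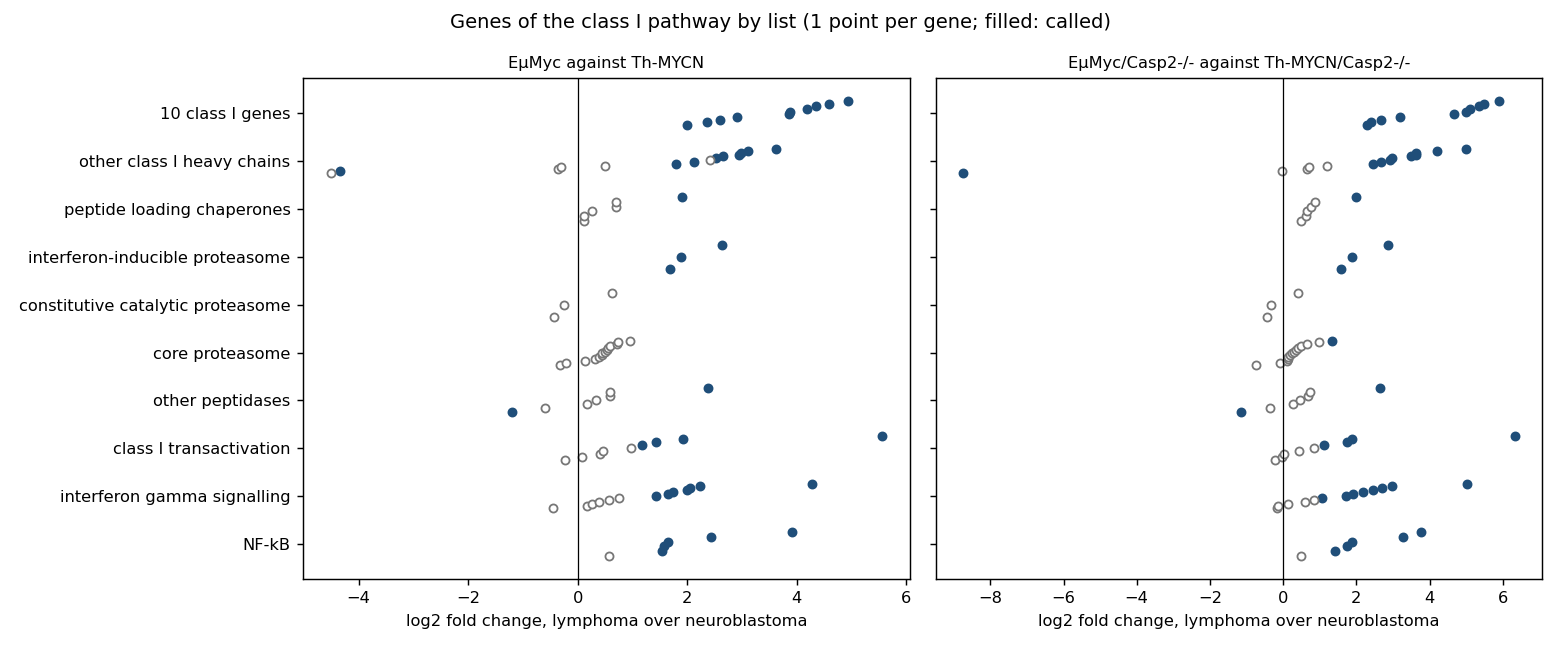
Fitted log2 fold change, lymphoma over neuroblastoma, of each tested gene of the 10 lists, with filled points for called genes, on the left with Casp2 intact and on the right without. All 10 class I genes and the 3 other interferon-inducible proteasome genes lie to the right and are called, while none of the 3 constitutive catalytic proteasome genes is called.

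Within groups the 10 genes did not all vary together. Deviations of log2 CPM from the group mean were compared over the 15 tumors, as a description, since all genes of a tumor share its library. The median Pearson r over the 45 pairs was 0.426, with 20 pairs above 0.5. The highest was 0.892 for Tap2 and Psmb9, followed by 0.816 for Tap1 and Psmb9, and the lowest -0.347 for Tapbp and Erap1. Against the mean of the other 9, Tap1 (r = 0.88), Psmb9 (0.859) and H2-K1 (0.797) came highest, and Nlrc5 (0.194) and Erap1 (-0.0815) lowest.

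Single tumors stood out in these deviations. Among the 8 neuroblastomas tumor MYCN391 was highest for 7 of the 10 genes and tumor MYCNC2ko180 for the other 3, H2-D1, Tapbp and Psmb8. Tumor MYCN391 also had the most leukocyte markers of the neuroblastomas, 269 CPM against 95.9 to 153 CPM in the other 7, and the most of 1 dendritic cell marker, Itgax, which macrophages also express, at 40.2 CPM against 4.34 to 8.06 CPM. The more specific dendritic cell markers Flt3 and Xcr1 were at 0.494 and 0.371 CPM in it, also the highest of the neuroblastomas. Clec9a was at 0.0618 CPM in it and reached 1.09 CPM in another Th-MYCN tumor. These values rest on few reads, as 3 reads in tumor MYCN391 were 0.188 CPM. The 6 T cell markers in the files summed to 6.11 CPM in tumor MYCN391, within the 5.04 to 10.97 CPM of the others. Most of that sum was Cd4, at 5.56 to 7.91 CPM in Th-MYCN tumors. Macrophage markers summed to 948 CPM in tumor MYCN391 and to 896 CPM in tumor MYCNC2ko180, against 380 to 787 CPM in the other neuroblastomas. NK cell markers summed to 1.05 CPM in tumor MYCN391, against 0.0726 to 0.578 CPM in the others. The part of these cells was not tested. Among the 7 lymphomas tumor EuMyc835 was highest for H2-K1, H2-D1 and B2m, and tumor EuMycC2ko215 for Tap1, Tap2, Tapbp, Psmb8 and Psmb9, but lowest for Erap1. The 5 genes outside the list whose deviations were most like the mean of the 10 over the 15 tumors were D14Ertd668e (r = 0.895), Ccl19 (0.883), Il27ra (0.87), Snx33 (0.853) and Sfpi1 (0.85). They were picked as the highest of all genes tested, so their r is a description only. Within the neuroblastomas r ran from 0.88 to 0.949, and within the lymphomas from 0.474 for Snx33 to 0.974 for Ccl19. D14Ertd668e was low, with group means of 0.599 to 2.67 CPM. Sfpi1, now called Spi1, encodes PU.1, a factor of myeloid and B cells, and had a mean of 81.4 CPM in EμMyc and 10.7 CPM in Th-MYCN tumors. Ccl19, a chemokine of lymphoid tissue, had means of 4.58 and 0.744 CPM in the same groups.

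**Figure D5:**
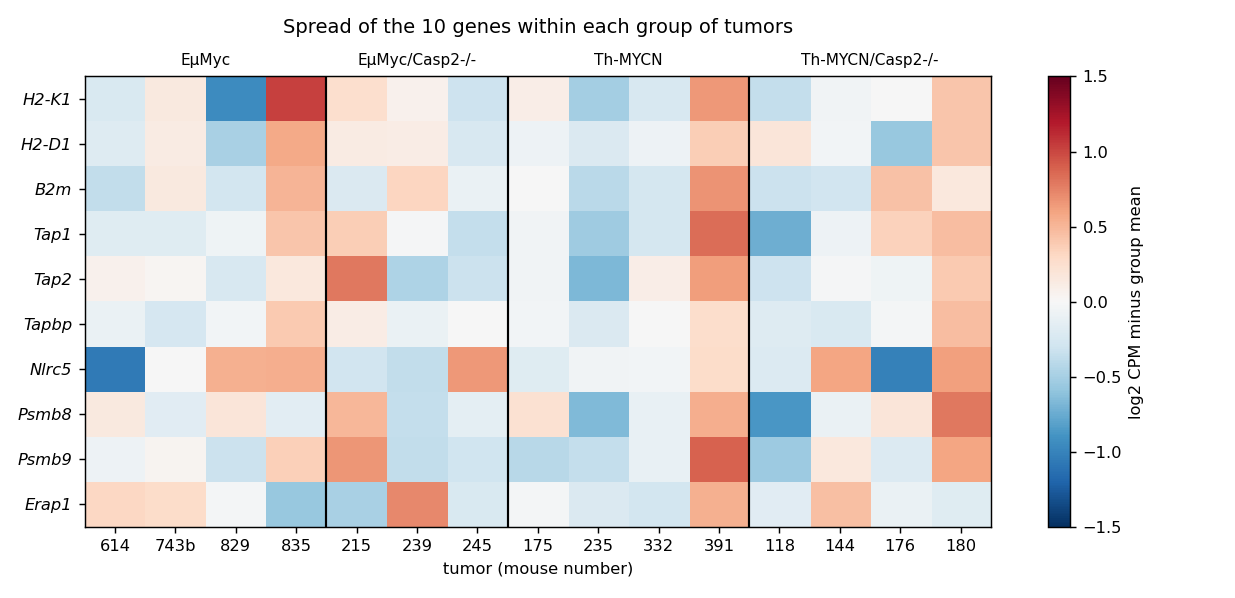
Log2 CPM of the 10 genes in each of the 15 tumors minus the mean of that tumor's group, from blue (below) to red (above). Tumor MYCN391 is above its group mean for all 10 genes and tumor MYCNC2ko180 for 9, while tumors EuMyc835 and EuMycC2ko215 are above for most genes but not for Erap1.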

How the data were processed

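Poly(A) RNA of 1 tumor per mouse was sequenced as single reads. The authors deposited raw counts of reads per gene from STAR on mm10, with 3 columns per library (either strand, first strand, second strand). The annotation release is not given in the sources used here. The second strand counts were used, as in the study's methods, and held 48.8 to 49.3% of the stranded reads, so reads of overlapping genes on opposite strands cannot be told apart. Genes with over 1 CPM in at least 3 of 15 tumors were fitted with edgeR 4.0.16 (R 4.3.3) by TMM and the quasi-likelihood test over 4 group means, with Benjamini-Hochberg adjustment over 14880 genes. Calls needed FDR under 0.05 and an over 2-fold difference. The likelihood ratio test, which the study used, and DESeq2 1.42.0 were alternatives, with other scalings and filters, either-strand counts, onset as a covariate and each tumor left out. Intervals are 95%. On simulated counts for Th-MYCN/Casp2-/- against Th-MYCN (14880 genes), QLF recovered 64% of 4-fold changes with 3.03% false calls, LRT 75% with 9.09%. Each gene was simulated at its mean over all 15 tumors. These shares therefore do not show how often smaller changes, or changes of genes low in neuroblastoma, would be found. A floor of 3 reads was 0.170 to 0.607 CPM. Subunit ratios were tested by exact permutation.

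The genes named outside the 10 were at most the 3 called genes per list and direction with the largest log2 fold changes, the 6 subunits of the ratios and the 5 genes whose deviations were most like those of the 10. Calr, Ifng and single marker genes were named after their values were seen. A gene that the rule names is not reported here. The 10 genes and the lists were chosen with earlier results of these data known. The p-values measure the spread between mice. A further EμMyc/Casp2-/- tumor that the study removed is not analysed here.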

Additional observations from a re-analysis of the deposited data

Results flagged for a closer look

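The levels of the 10 genes and the ratios were checked in 39 groups of 4 tumors for a tumor standing far from the others (by the gap to the nearest tumor as a share of the range, with a limit that chance passes in about 1 of 20 groups), and 3 were noted. Tap1 was at 114 CPM in EμMyc tumor EuMyc835, where the other 3 had 74.8 to 81.2 CPM. Psmb9 was at 4.82 CPM in Th-MYCN tumor MYCN391, where the other 3 had 1.96 to 2.42 CPM. Erap1 was at 3.66 CPM in Th-MYCN/Casp2-/- tumor MYCNC2ko144, where the other 3 had 2.36 to 2.51 CPM.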

How the results depend on the processing

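All 10 genes were called higher in lymphoma under each of 16 alternatives with Casp2 intact (log2 fold changes 1.84 to 5.13) and each of 14 without Casp2 (2.12 to 6.16). None was called under any of 17 alternatives between the neuroblastoma genotypes, 16 between the lymphoma genotypes and 22 for the difference of differences, with lowest FDRs of 0.17, 0.187 and 0.183. The all-gene counts there did depend on the test, with 0.0336%, 0.141% and 0.0538% of genes called by QLF, 0.813%, 1.44% and 0.914% by LRT and 0.78%, 1.36% and 0.827% by DESeq2, and 1008, 1269 and 1127 genes at an unadjusted QLF p under 0.05. Pooling all lymphomas and all neuroblastomas took the ratio differences past the threshold, at 4.73, 5.67 and 2.97.

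Several uncalled values near 0 changed sign. Tap2 between neuroblastoma genotypes was 0.00198 without a filter, B2m between lymphoma genotypes 0.11 with onset as a covariate, and the Psmb8/Psmb5 log2 ratio there 0.0103 with either-strand counts; the cause was not tested. With each tumor left out, the log2 fold change between neuroblastoma genotypes ran from -0.22 to 0.19 for H2-K1, -0.39 to 0.0396 for B2m, -0.44 to 0.0763 for Tap1, -0.19 to 0.23 for Tap2, -0.26 to 0.00247 for Tapbp and -0.37 to 0.16 for Psmb8. Without tumor MYCN391 all 6 of these were above 0. Between lymphoma genotypes it ran from -0.0372 to 0.66 for H2-K1, -0.0358 to 0.34 for H2-D1, -0.33 to 0.0293 for B2m and -0.67 to 0.0110 for Erap1. The difference of differences ran from -0.20 to 0.27 for B2m and -0.25 to 0.14 for H2-D1. No paired analysis was possible because the labels give mouse numbers that the groups do not share.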
